A study of Homo sapiens with 12 samples.

Results

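The comparison is between LM2 cells transfected with an siRNA labelled ZRANB1 and LM2 cells transfected with a scramble siRNA, 3 libraries each, out of 12 libraries in the study. Libraries were taken by their labelled group, and every gene in the deposited table was a member. Of 24556 genes in the table, 11929 averaged 1 FPKM or more across the 12 values and were tested. A gene low with the scramble siRNA could pass this filter through the other libraries, so list counts and medians can lean toward rises. FPKM is a level per length, counting fragments per kilobase of transcript and scaling them to the mapped fragments of the library. LM2 cells descend from MDA-MB-231, a human breast cancer line, and were selected for metastasis to the lung. The other 6 libraries were from LM2 cells transduced with a short hairpin RNA (shRNA), 3 with a scramble shRNA and 3 with an shRNA against EZH2. All 4 groups were grown in DMEM with 10% fetal bovine serum, penicillin and streptomycin. Of the siRNA, its sequence, dose and time of exposure, and of the shRNA the number of hairpins, nothing is stated in the sources used here.

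ZRANB1 (also called Trabid) is a deubiquitinase of the OTU family, cysteine proteases that cut ubiquitin chains from proteins. It has been described as an enzyme that removes ubiquitin from EZH2 and so keeps that protein from being degraded. EZH2 is the catalytic subunit of Polycomb repressive complex 2 (PRC2), which methylates histone H3 at lysine 27 at repressed genes. By its title, the study asked which transcripts differ when either gene is knocked down. A deubiquitinase can change the level of a protein without changing that protein's transcript, and proteins were not measured here.

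Within each group the 3 values were sorted as text in every row where they differed, so that a value cannot be assigned to 1 library. Group means, spreads and single-gene tests do not depend on this order. Nothing in the labels ties a group's libraries to separate cultures, and p-values then reflect only the spread of these samples, possibly a technical one. The table held no counts and the depth is unknown. In these bulk samples, fewer cells of a kind and less RNA per cell cannot be told apart. The scramble siRNA and scramble shRNA groups differed in 6036 of the 11929 genes (50.6%) by limma. Delivery, and any difference in handling between the siRNA and shRNA groups, cannot be told apart from this. Levels in both shRNA groups are therefore given beside the changes, except where a gene is described by its log2 fold change alone. Where 4 group means follow each other, their order is scramble siRNA, ZRANB1 siRNA, scramble shRNA and EZH2 shRNA. Log2 fold changes compare the ZRANB1 siRNA with the scramble siRNA group on the scale of log2(FPKM + 1), which understates the change of low transcripts, and carry limma's standard error (SE) and Benjamini-Hochberg adjusted p. A gene was called higher or lower at an adjusted p below 0.05, and "rose" and "fell" are used of called genes. All 10 markers listed for basal and mesenchymal breast lines passed the filter, as did 7 of 12 luminal markers. Of 14 blood cell markers 3 passed the filter and 4 were listed at 0 in all groups, and the list summed to 43.4, 44.7, 40.7 and 40.9 FPKM. The monocyte marker CD14 was the 1 member called, with 0.243, 0.867, 3.9 and 2.87 FPKM, higher by 0.59 on the log2 scale (adjusted p = 0.0401 by limma). No endothelial marker of 9 passed the filter. The fibroblast markers summed to 10.4, 19.5, 26.7 and 22.1 FPKM over the 11 genes, most of it from the collagen gene COL1A1. The part of these markers in the results was not tested.

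The transcript that the siRNA was labelled to target differed little from its own control. The 3 values of ZRANB1 were 10.5, 11.5 and 12.1 FPKM with the scramble siRNA and 9.05, 9.49 and 11.5 FPKM with the ZRANB1 siRNA. The ranges overlapped, and limma gave a log2 fold change of -0.17, a 95% interval from -0.42 to 0.08 and an adjusted p = 0.349, so ZRANB1 was not called. Against the shRNA groups the ZRANB1 siRNA group was lower, by a log2 difference of -0.35 from the scramble shRNA (adjusted p = 0.0375 by limma) and of -0.46 from the EZH2 shRNA (adjusted p = 0.0103). The values in those groups were 11.8, 12.9 and 14.2 FPKM and 12.7, 13.4 and 16.4 FPKM, all above the highest of the ZRANB1 siRNA group. Since a lower level than in the siRNA control was not shown, directions below are those of the libraries labelled ZRANB1 siRNA.

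EZH2, which the siRNA was not labelled to target, fell. Its values were 46.5, 48.7 and 50.6 FPKM with the scramble siRNA and 28.3, 30.4 and 32.4 FPKM with the ZRANB1 siRNA. These ranges lay apart, and EZH2 fell to 62.5% of its siRNA control, a log2 fold change of -0.66 (SE 0.0687, adjusted p = 5.43e-05 by limma). The scramble shRNA group lay between them, at 34.2, 35.6 and 36.3 FPKM, and the ZRANB1 siRNA group differed from it by -0.22 on the log2 scale (adjusted p = 0.0355 by limma). EZH2 was lowest with its own shRNA, at 16.1, 16.1 and 17.3 FPKM. The smallest two-sided p of an exact permutation test is 0.1 with groups of 3, which was reached for EZH2, and for ZRANB1 that test gave p = 0.2.

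**Figure D1:**
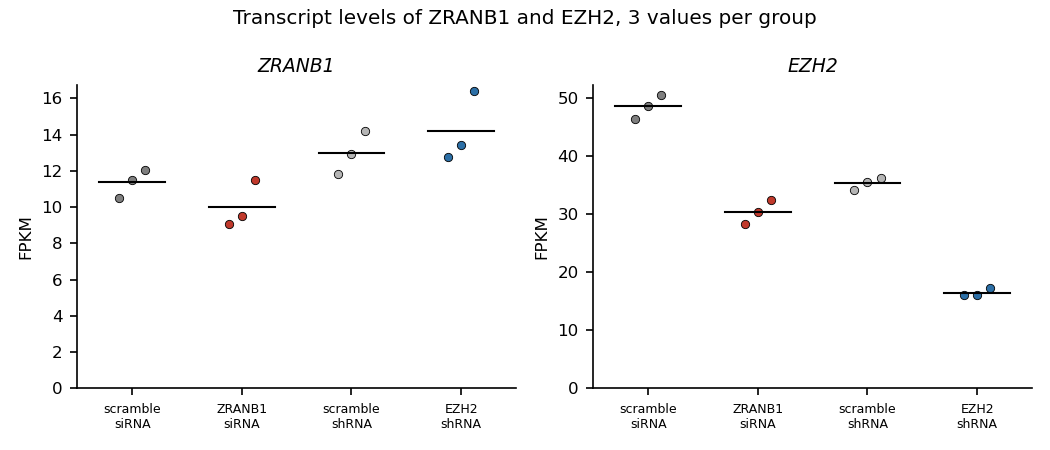
FPKM of ZRANB1 and EZH2 (vertical axes, linear from 0) in the 4 groups (horizontal axes); points are the 3 values of a group, spread sideways for legibility only, and bars are group means. The ZRANB1 values of both siRNA groups overlap, with means of 11.4 and 10.02 FPKM, whereas those of EZH2 lie apart, with means of 48.6 and 30.4 FPKM.

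Against the scramble siRNA, 1210 of the 11929 tested genes (10.1%) were called higher and 775 (6.50%) lower, 1985 in all (16.6%). Leaving out any 1 value of either siRNA group, in a random order, gave 927 to 957 higher and 453 to 490 lower. The rises were also the larger changes: 211 genes (1.77%) were called with at least a 2-fold rise and 12 (0.101%) with at least a 2-fold fall. The median log2 fold change was 0.54 among genes called higher and -0.397 among genes called lower, against -0.0167 over all genes tested. Without an adjustment, 3516 genes had a p below 0.05. Counts of the gene lists below are to be read beside the 10.1% higher and 6.50% lower over all genes tested. Of these genes 0.377% were called higher and 0.126% lower than both scramble groups. CXC chemokines, IL6 family, NF-kB, complement, collagens, MHC class I, interferon effectors and cholesterol enzymes held 0 such genes. Metalloproteinases and integrins each held 2, both higher. The scramble siRNA mean was below the scramble shRNA mean in 18 of 19 NF-kB and 15 of 15 MHC class I genes. Over all 11929 genes it was below in 5822. In 1981 of the 1985 called genes (99.8%) the 3 values of one group lay wholly outside the range of the other, against 36.4% of all genes tested. With 3 values per group a called gene nearly always shows such ranges, so this adds no support to the calls. The calls of the following genes named here were lost under at least 1 alternative setting of filter, scaling, pseudocount or libraries: ABCA1, BATF3, CD14, CDKN1B, CREB3L4, EGR1, EREG, FASN, FOSL1, GSTO1, HK2, HMGB2, HOXB3, HOXB9, IKBKG, INSIG2, KDM6B, KRT19, MDM2, MVD, MX1, NFKB1, NRG1, OTUD5, PDK1, PLA2G4A, PSMB10, SIN3A, SLC22A3, SLC30A1, SOCS1, TAF13, TMEM150A and VSTM1.

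**Figure D2:**
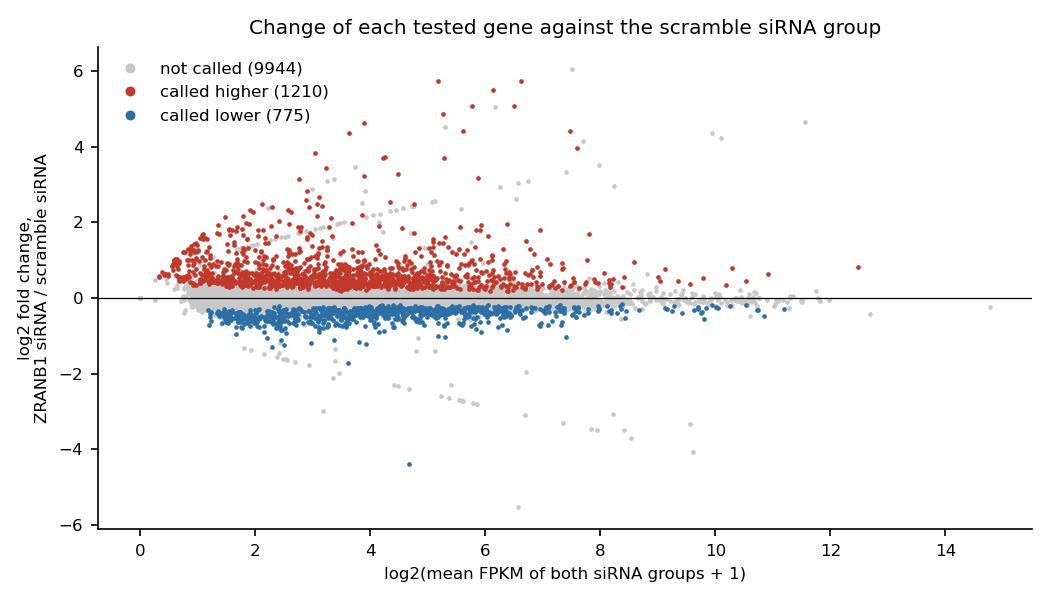
Log2 fold change of each tested gene between the ZRANB1 siRNA and scramble siRNA groups (vertical axis) against the log2 mean level of both groups (horizontal axis); red points were called higher, blue points called lower and grey points not called at an adjusted p of 0.05. The largest called changes are rises, and most called falls are shallower than a log2 change of -1.

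The PRC2 list held 11 tested genes, of which 1 rose and 1 fell, beside 10.1% higher and 6.50% lower over all genes tested. Its median log2 fold change was -0.0379. EZH2 was the one that fell. JARID2, an accessory subunit that helps bring PRC2 to its target genes, was the one that rose, from values of 8.74, 8.8 and 8.94 FPKM to 12.8, 12.9 and 13.8 FPKM. These ranges did not overlap, and its log2 fold change was 0.53 (SE 0.0601, adjusted p = 1.15e-04 by limma), with 15.6 and 16.4 FPKM in the scramble and EZH2 shRNA groups. The core subunits were not called: SUZ12 had means of 28.4, 24.5, 21.9 and 20.9 FPKM and EED of 32.8, 32.2, 38.9 and 32.8 FPKM. EZH1, the alternative catalytic subunit, had 6.41, 5.54, 5.32 and 5.15 FPKM. Of the enzymes that remove the methyl groups, KDM6B rose from 2.65 ± 0.46 to 4.18 ± 0.34 FPKM (SD, n = 3), beside shRNA means of 4.93 and 5.78 FPKM. KDM6A, with 4.08, 5.25, 8.21 and 8.39 FPKM, was not called.

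Among 14 tested OTU deubiquitinases other members moved more than ZRANB1, 5 higher and 0 lower. TNFAIP3, also called A20, which ends NF-kB signalling by editing ubiquitin chains, had values of 1.37, 1.47 and 1.49 FPKM in the scramble siRNA group and 8.1, 8.52 and 8.98 FPKM in the ZRANB1 siRNA group. The groups lay far apart, with a log2 fold change of 1.96 (SE 0.0663, adjusted p = 4.88e-09 by limma). In the shRNA groups TNFAIP3 had means of 8.11 FPKM with the scramble and 17.97 FPKM with the EZH2 hairpin. OTUB2, OTUD1 and OTUD5 also rose and had their lowest mean with the scramble siRNA. OTUB2 had group means of 2.76, 10.2, 13.5 and 22.3 FPKM. OTUD1 had 4.21, 10.3, 18.1 and 19.6 FPKM. OTUD5 had 16.2, 21.8, 29.2 and 29.1 FPKM. OTUB1, with 44.9, 44.8, 54.9 and 48.7 FPKM, was not called.

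Genes of the CXC chemokine family, secreted attractants of leukocytes, held the highest median change of the lists described here: 6 of 6 tested members rose, around a median log2 fold change of 2.75. The other 8 listed genes were below the filter or not in the table under a tested symbol. CXCL3, CXCL10 and CXCL11 averaged below 1 FPKM with the scramble siRNA and passed the filter through the other groups. Members low in all groups were not tested, so this count and median can lean toward rises. CXCL8, which attracts neutrophils, had values of 1.81, 1.97 and 2.27 FPKM with the scramble siRNA and 117, 123 and 168 FPKM with the ZRANB1 siRNA. No value of one group came near the other, and the mean was 67.6 times that of the control (log2 fold change 5.49, SE 0.169, adjusted p = 2.14e-09 by limma). In the shRNA groups CXCL8 stood at 105, 142 and 156 FPKM with the scramble and 295, 319 and 389 FPKM with the EZH2 hairpin. CXCL1 rose from 1.37, 1.52 and 1.84 FPKM to 66.9, 74.8 and 78.7 FPKM, with means of 174 and 159 FPKM in the shRNA groups. CXCL2 and CXCL3, are near-identical neighbours of CXCL1 whose reads can be split between them. CXCL2 had group means of 1.36, 13.9, 22.6 and 23.4 FPKM. CXCL3 had 0.855, 12.02, 15.9 and 21.3 FPKM, so that both were lowest with the scramble siRNA and higher with either shRNA than with the ZRANB1 siRNA. CXCL10, which attracts T cells and is raised by interferon, had 0.0459, 1.89, 5.58 and 5.54 FPKM. CXCL11, of the same kind, had 0.0293, 2.09, 5.13 and 4.95 FPKM.

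Many of these chemokine genes carry, just before their start, sites for NF-kB, the transcription factor that inflammatory signals activate. The stretches below show such matches for 4 CXC chemokine genes and IL6, which rose, and for 2 feedback inhibitors of NF-kB, read from RefSeq promoter windows on GRCh38.p14, which is not the build used for the deposited values. Capitals mark matches to GGNNTTNCC on either strand within 250 bases before the start, overlapping matches included, and each line is written 5′ to 3′ on the strand of its gene.
CXCL8: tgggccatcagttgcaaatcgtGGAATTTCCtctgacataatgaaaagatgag
CXCL1: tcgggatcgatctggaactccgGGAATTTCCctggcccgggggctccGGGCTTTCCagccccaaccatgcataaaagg
CXCL2: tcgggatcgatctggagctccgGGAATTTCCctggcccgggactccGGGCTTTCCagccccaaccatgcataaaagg
CXCL3: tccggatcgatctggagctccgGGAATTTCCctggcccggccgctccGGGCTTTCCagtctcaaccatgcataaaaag
IL6: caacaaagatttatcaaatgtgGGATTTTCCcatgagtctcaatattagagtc
NFKBIA: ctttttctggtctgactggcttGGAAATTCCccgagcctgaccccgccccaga
TNFAIP3: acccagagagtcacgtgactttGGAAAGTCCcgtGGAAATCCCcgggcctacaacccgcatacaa
The CXCL8 stretch is chr4:73740456-73740508 on the plus strand, with the match 91 to 83 bases before the start. The CXCL1 stretch, chr4:73869293-73869370 on the plus strand, holds 2 matches between 78 and 45 bases before the start. Those of CXCL2 (chr4:74099218-74099294) and CXCL3 (chr4:74038712-74038789) are on the minus strand and hold 2 matches each at nearly the same distances. The IL6 stretch is chr7:22727106-22727158 on the plus strand, that of NFKBIA chr14:35404800-35404852 on the minus strand and that of TNFAIP3 chr6:137867170-137867234 on the plus strand. These letters are common: 5260 of 35116 windows of this length in the table (15%) hold at least 1 match. A window was found for 8701 of the 11929 tested genes (72.9%), too few for a comparison of shares between called and other genes, so none was made. A match is a description of the letters and not a measured binding site. The genes shown were picked by hand. Others that rose, CXCL10 and CXCL11 among them, are not shown, so these matches do not stand for all genes that rose.

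Interleukin genes rose as well. Of 7 tested genes of the interleukin 1 family, 5 rose and 1 fell, around a median of 0.66. The ligand gene IL1B had values of 14.01, 15.1 and 15.8 FPKM with the scramble siRNA and 322, 346 and 353 FPKM with the ZRANB1 siRNA. The groups did not overlap (log2 fold change 4.42, SE 0.102, adjusted p = 1.30e-10 by limma), and the shRNA groups stood higher still, at 435 and 620.5 FPKM. IL1A, the other main ligand, rose from near 0 to 3.52 ± 0.353 FPKM (SD, n = 3), with shRNA means of 6.36 and 8.15 FPKM. The receptor chain IL1R1 had group means of 0.444, 1.04, 2.47 and 1.53 FPKM. Its partner IL1RAP had 6.91, 12.2, 12.7 and 16.7 FPKM. CASP1, the protease that matures IL1B, had 2.56, 4.63, 7.11 and 4.31 FPKM. These 3 were lowest with the scramble siRNA. IL18 was the member that fell, from 57.8, 64.04 and 77.2 FPKM to 34.95, 39.4 and 43.3 FPKM. Its ranges were apart too, and its shRNA means of 23.2 and 24.4 FPKM were below both siRNA groups.

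Of 15 tested genes of the IL6 family, the colony-stimulating factors and their receptors, 11 rose and 0 fell, with a median of 0.88. IL6 rose from 1.99, 1.998 and 2.46 FPKM to 94.1, 110.4 and 111 FPKM, 48.97 times the control mean. Its log2 fold change was 5.08 (SE 0.0838, adjusted p = 1.03e-11 by limma), and both shRNA groups, at 194, 203 and 208 and 228, 231 and 244 FPKM, lay above every ZRANB1 siRNA value. CSF3, the granulocyte growth factor, had group means of 21.9, 360.4, 948 and 774 FPKM. CSF2, which acts on granulocytes and macrophages, had 1.74, 33.7, 70.7 and 78.5 FPKM. As with IL6, the shRNA means of both genes were above both siRNA means, but CSF3 was highest with the scramble shRNA. IL11, which signals through the same receptor chain as IL6, had 53.9, 191, 305 and 375 FPKM. LIF, another such ligand, had 16.5, 31.2, 47.9 and 51.9 FPKM. CSF1, the macrophage growth factor, rose from 14.5 ± 1.68 to 22.1 ± 2.83 FPKM (SD, n = 3), beside 42.3 FPKM with the scramble and 19.97 FPKM with the EZH2 shRNA. On the receptor side the shared chain IL6ST rose, with 24.97, 46.4, 58.5 and 70.5 FPKM. OSMR was not called, with 25.9, 28.3, 27.9 and 29.2 FPKM. LIFR was not called either, with 5.19, 5.2, 3.81 and 6.45 FPKM.

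Within the NF-kB system itself, 12 of 19 tested genes rose and 0 fell, around a median of 0.53. NFKBIA, the inhibitor that holds NF-kB in the cytoplasm, had values of 18.1, 18.1 and 18.3 FPKM against 47.1, 47.7 and 48.1 FPKM. The spread within each group was small beside the gap between them (log2 fold change 1.34, SE 0.0593, adjusted p = 4.05e-08 by limma), and the shRNA means were 89.6 and 79.99 FPKM. NFKBIE, a related inhibitor, had group means of 4.05, 9.21, 13.9 and 14.9 FPKM. BCL3, of the same family, had 8.99, 18.6, 26.6 and 30.98 FPKM. TNIP1, a partner of TNFAIP3, had 54.2, 108, 176 and 165 FPKM. All 3 means were lowest with the scramble siRNA and next lowest with the ZRANB1 siRNA. The subunits RELB and NFKB2 had log2 fold changes of 1.33 and 0.80 and NFKB1 of 0.34, while RELA (0.22) and REL (0.28) were not called. Among the kinases IKBKE rose by 1.20 and the scaffold IKBKG by 0.53 on the log2 scale, and IKBKB, with 0.18, and CHUK, with -0.05, were not called.

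In the TNF superfamily list 7 of 15 tested genes rose and 0 fell. TNFRSF11B, the decoy receptor osteoprotegerin, had group means of 0.43, 3.89, 13.6 and 8.2 FPKM. The ligand TNFSF15 had 0.0873, 2.29, 2.52 and 6.05 FPKM. The adaptor TRAF1 had 0.294, 2.3, 5.33 and 4.32 FPKM. Each of these was higher in both shRNA groups than in either siRNA group. They averaged below 1 FPKM with the scramble siRNA and passed the filter through the other groups. BIRC3, an inhibitor of apoptosis that binds TNF receptor adaptors, rose, with 3.2, 6.69, 15.1 and 10.9 FPKM. Complement and acute-phase genes had 7 higher and 0 lower of 13, with a median of 0.59. Among those that rose, C3, CFB, C1S and LCN2 averaged below 1 FPKM with the scramble siRNA and passed the filter through the other groups. The central complement component C3 went from 0.212, 0.245 and 0.514 FPKM to 64.7, 68.5 and 75.8 FPKM, so that both groups lay apart by much more than their spread (log2 fold change 5.74, SE 0.101, adjusted p = 1.41e-11 by limma). The shRNA groups had 189 and 172 FPKM of C3. Factor B (CFB) had group means of 0.509, 4.29, 10.9 and 9.88 FPKM. The acute-phase gene SAA1, which has close paralogs, had 4.58, 71.6, 425 and 130.5 FPKM.

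C15orf48, which encodes a small mitochondrial protein raised in inflammation, was among the largest rises, from 2.12, 2.46 and 3.32 FPKM to 174, 187 and 212 FPKM. The groups did not overlap, and the scramble shRNA group, at 663 FPKM, was higher than the EZH2 shRNA group, at 429 FPKM. The hedgehog ligand gene SHH rose from 0, 0 and 0.212 FPKM to 12.3, 15.2 and 15.5 FPKM, with shRNA means of 34.6 and 30.7 FPKM. Lipid mediator genes were also among the rises. ALOX5AP, which presents arachidonic acid to the leukotriene-forming lipoxygenase, had group means of 0.146, 22.5, 44.2 and 52.9 FPKM. Of 7 tested prostaglandin genes 3 rose, and they stand in order along the pathway to prostaglandin E2. PLA2G4A, which frees arachidonic acid, had 3.42, 4.66, 5.38 and 5.33 FPKM. PTGES, the terminal synthase, had 44.95, 112, 169.6 and 232 FPKM. PTGS2, cyclooxygenase 2, acts between them. PTGS2 had values of 2.64, 3.17 and 3.67 FPKM with the scramble siRNA, 34.5, 38.9 and 45.5 FPKM with the ZRANB1 siRNA, 13.8, 17.2 and 17.5 FPKM with the scramble shRNA and 25.9, 30.1 and 41.5 FPKM with the EZH2 shRNA. It was above both scramble groups with no overlap, and its range overlapped that of the EZH2 shRNA group.

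Proteases that remodel the matrix rose. Of 17 tested metalloproteinases and inhibitors, 9 rose and 0 fell, around a median of 0.43. The interstitial collagenase MMP1 had values of 3.78, 4.33 and 4.42 FPKM with the scramble siRNA, 164, 171 and 190.0 FPKM with the ZRANB1 siRNA, 25.4, 26.9 and 28.7 FPKM with the scramble shRNA and 317, 324 and 348 FPKM with the EZH2 shRNA. All 4 groups were apart, with the ZRANB1 siRNA above both scramble groups and below the EZH2 shRNA. The stromelysin MMP3 showed the same order of means, with 0.36, 3.68, 2.42 and 6.54 FPKM. The membrane-bound MMP14 had 87.95, 180.5, 197 and 222 FPKM. The membrane protease ADAM8 had 18.5, 58.1, 157 and 98.7 FPKM. The inhibitor TIMP1 rose with the proteases, with 84.8, 151, 202 and 224 FPKM. MMP9 was listed at 0 in all scramble siRNA values and at a mean of 1.05 FPKM in the ZRANB1 siRNA group, with 1.85 and 3.14 FPKM in the shRNA groups. In the plasminogen system 7 of 15 genes rose and 0 fell. The urokinase receptor PLAUR had 44.9, 91.04, 146 and 127 FPKM. SERPINB2, an inhibitor of urokinase, had 1.89, 25.9, 20.9 and 41.98 FPKM, above the scramble shRNA mean. Tissue factor (F3), which starts blood clotting, rose from 86.2 ± 6.24 to 111 ± 7.62 FPKM (SD, n = 3), with shRNA means of 81.4 and 126 FPKM.

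Matrix genes rose too. Of 24 tested collagen chains and processing enzymes 16 rose and 0 fell, with a median of 0.61. COL7A1, the anchoring fibril collagen, had values of 2.8, 3.31 and 3.9 FPKM and 80.9, 84.1 and 113 FPKM, and the shRNA groups had means of 289 and 239 FPKM. The gap between the siRNA groups was many times their spread (log2 fold change 4.42, SE 0.177, adjusted p = 1.84e-08 by limma). COL5A1 had group means of 6.49, 26.9, 40.3 and 54.01 FPKM, the basement membrane chains COL4A1 and COL4A2 had log2 fold changes of 0.68 and 0.79, and the prolyl and lysyl hydroxylases P4HA1, P4HA2, PLOD1 and PLOD2 had 0.88, 0.85, 0.85 and 0.61. Of 17 tested laminins and matrix glycoproteins 12 rose and 1 fell. Tenascin C (TNC) had group means of 2.72, 15.1, 30.4 and 28.02 FPKM. TGFBI, a matrix protein raised by TGF-beta, had 24.8, 88.3, 192 and 169 FPKM. Fibronectin (FN1) joined them in having its lowest mean with the scramble siRNA, at 35.2, 67.9, 98.5 and 82.8 FPKM.

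Integrins, the receptors for these matrix proteins, had 7 of 11 tested chains higher and 0 lower. The fibronectin receptor chain ITGA5 rose from 19.6 ± 0.639 to 54.9 ± 4.89 FPKM (SD, n = 3), beside shRNA means of 73.1 and 90.5 FPKM. Its partner ITGB1 had 275, 404, 529.9 and 510.3 FPKM. The collagen receptor chain ITGA2 had 26.4, 39.9, 26.6 and 44.5 FPKM, so that the means with the ZRANB1 siRNA and with the EZH2 shRNA were above those of both scramble groups. Among keratins and desmosome genes 3 rose and 3 fell of 16, with KRT19 down, from 47.4 ± 7.35 to 28.6 ± 3.83 FPKM (SD, n = 3), and far lower in both shRNA groups (7.53 and 7.07 FPKM). Of 12 tested cadherins and factors of epithelial-mesenchymal transition 5 rose, and they included genes of the mesenchymal and of the epithelial side. SNAI2, a mesenchymal transcription factor, had 13.2, 22.4, 29.2 and 30.5 FPKM. CLDN7, an epithelial tight junction gene, had 2.27, 6.04, 11.8 and 10.1 FPKM.

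**Figure D3:**
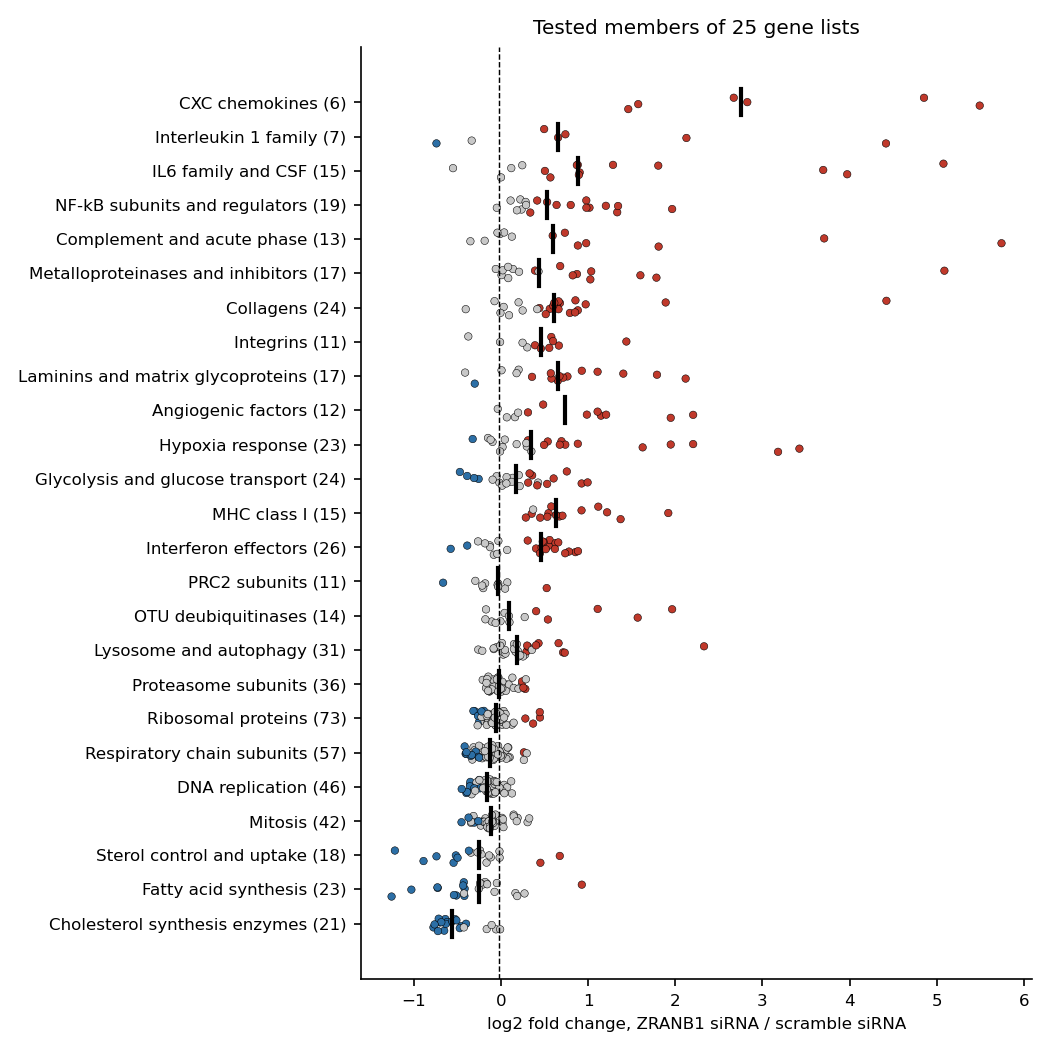
Log2 fold change between the ZRANB1 siRNA and scramble siRNA groups (horizontal axis) for the tested members of 25 gene lists (vertical axis, number tested in parentheses); red points were called higher, blue lower, grey not called, points are spread vertically for legibility, thick bars are list medians and the dashed line is the median of all genes tested, -0.0167. CXC chemokines lie farthest to the right and cholesterol synthesis enzymes to the left, with medians of 2.75 and -0.56.

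Cytokine and growth factor signalling genes moved in both directions. Of 9 tested SOCS and PIAS inhibitors 1 rose and 3 fell. SOCS2, an inhibitor of growth hormone and cytokine receptors, had values of 49.1, 49.8 and 56.04 FPKM and 23.8, 23.9 and 26.8 FPKM, and only 2.27 and 4.96 FPKM on average in the shRNA groups. The siRNA groups did not overlap (log2 fold change -1.03, SE 0.12, adjusted p = 1.36e-04 by limma). SOCS3, an inhibitor of IL6 signalling, fell, with 26.4, 19.03, 18.3 and 10.8 FPKM. SOCS1, an inhibitor of interferon signalling, rose, with 3.94, 6.66, 11.7 and 13.8 FPKM. Among STAT and IRF factors 2 of 14 rose, beside 10.1% of all genes tested. IRF1 was among them, with 7.34, 13.8, 22.6 and 19.7 FPKM. The kinase JAK1 rose as well, with 17.6, 24.3, 37.8 and 34.5 FPKM. In the EGF family 5 of 9 rose, the ligands TGFA, HBEGF and EREG with log2 fold changes of 0.88, 0.41 and 0.67 and the feedback inhibitors LRIG1 and ERRFI1 with 0.90 and 0.62. The ligand NRG1 had -0.30 and was called lower.

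Of 18 readouts of ERK, the kinase downstream of these receptors, 1 rose and 4 fell, beside 10.1% higher and 6.50% lower over all genes tested. IER3, which NF-kB also raises, was the member that rose, with 105, 340.1, 597 and 607 FPKM. The feedback inhibitor SPRY1 fell, with 24.3, 15, 9.61 and 10.5 FPKM. The phosphatase DUSP1 had 167, 129, 62.6 and 95.7 FPKM. DUSP5, a nuclear phosphatase of ERK, had 94.7, 70.04, 55.4 and 69.9 FPKM. These 3 had their highest mean with the scramble siRNA, whereas the immediate early factor EGR1, which fell, was highest with the scramble shRNA, at 14.02, 11.4, 18.3 and 11.7 FPKM. Of 11 AP-1 factors 5 rose, JUNB, JUN, FOSL1, MAFF and MAFK, and BATF3 fell. JUNB had group means of 15.3, 30.8, 43.3 and 38.97 FPKM. Among transcripts raised by the growth regulator YAP 2 rose and 4 fell of 17, with ANKRD1 down from 197 ± 6.09 to 119 ± 8.63 FPKM (SD, n = 3), beside shRNA means of 69.8 and 50.5 FPKM.

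Genes of antigen presentation by MHC class I rose nearly throughout, 14 of 15 tested members, around a median of 0.63. Reads of the heavy chain genes are partly shared, so their separate levels are uncertain. HLA-B had values of 19.1, 24.4 and 29.7 FPKM and 79, 88.8 and 117 FPKM. The groups were apart (log2 fold change 1.92, SE 0.19, adjusted p = 3.81e-05 by limma), and the shRNA means were 278 and 161 FPKM. HLA-C had 24.7, 58.6, 125 and 92.9 FPKM, and both HLA-B and HLA-C were highest with the scramble shRNA. The peptide transporter chains TAP1 and TAP2 rose by 1.12 and 0.29 on the log2 scale, the immunoproteasome subunits PSMB8, PSMB9 and PSMB10 by 0.71, 1.37 and 0.58, and the class I transcriptional activator NLRC5 by 0.63. TAPBPL, with 0.37, was the tested member that was not called. Of the 36 ordinary proteasome subunits 3 rose and 0 fell, beside 10.1% higher and 6.50% lower over all genes tested.

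Antiviral genes moved mostly upward. Of 26 tested interferon effectors 16 rose and 2 fell, around a median of 0.46. IFIT3, a partner of IFIT1 in binding foreign RNA, had values of 24.97, 25.1 and 26.2 FPKM and 34.9, 38.3 and 40.8 FPKM, with no overlap, and 94.6 and 58.5 FPKM on average in the shRNA groups. ISG15, the ubiquitin-like modifier, had 83.6, 140.1, 263 and 206 FPKM. IFITM1, which blocks viral entry, had 1.3, 3.23, 5.49 and 4.9 FPKM. MX1 and IFITM2 were the members that fell, MX1 from 4.4 ± 0.454 to 2.62 ± 0.313 FPKM (SD, n = 3), beside shRNA means of 1.18 and 0.703 FPKM. Among 14 sensors of foreign RNA and their adaptors 6 rose and 1 fell. IFIH1, the cytoplasmic sensor MDA5, had 1.09, 4.27, 11.03 and 7.6 FPKM. DDX58, the sensor RIG-I, had 10.1, 16.5, 33.9 and 27.1 FPKM. Their adaptor MAVS had 12.2, 18.4, 24.02 and 31.8 FPKM. All 3 were lowest with the scramble siRNA. TMEM173 (STING), the adaptor of DNA sensing, fell, with 12.6, 7.26, 8.21 and 5.99 FPKM. In the RNA interference machinery 1 of 14 rose and 2 fell, beside 10.1% higher and 6.50% lower over all genes tested. DICER1, with 7.36, 10.1, 10.6 and 13.8 FPKM, was not called (adjusted p = 0.0583 by limma). It was called higher in 3 alternative settings: the 6 libraries alone, a pseudocount of 0.1, and small RNAs left out.

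Targets of the hypoxia factors rose in part. Of 23 tested genes of the hypoxia response 12 rose and 1 fell, with a median of 0.35. HIF1A had group means of 83.6, 78.2, 63.4 and 70.2 FPKM and was not called. EPAS1, which encodes HIF2A, rose from 28.6 ± 1.12 to 35.7 ± 1.17 FPKM (SD, n = 3), beside shRNA means of 27.1 and 41.4 FPKM. CA9, a carbonic anhydrase of hypoxic cells, had values of 0.359, 0.572 and 0.87 FPKM with the scramble siRNA and 15.3, 15.4 and 17.5 FPKM with the ZRANB1 siRNA. These lay apart (log2 fold change 3.42, SE 0.131, adjusted p = 1.35e-08 by limma), and the shRNA means were 23.2 and 39.6 FPKM. The hormone gene STC1 had 10.6, 104, 148 and 219 FPKM. NDRG1, a stress-responsive gene, had 31.4, 98.9, 140.3 and 156 FPKM. The mitophagy receptor gene BNIP3 had 83.5, 140.4, 231 and 219 FPKM. These 3 were lowest with the scramble siRNA and next lowest with the ZRANB1 siRNA. The hydroxylase EGLN3, which marks HIF for degradation, rose by 0.54 on the log2 scale. CA12, another carbonic anhydrase, was the member that fell, with 15.6, 12.3, 9.23 and 11.99 FPKM. The promoter of CA9 is shown because it holds the core letters of the site that HIF binds, ACGTG on either strand, in capitals. Of 35116 windows 6501 (18.5%) hold these letters. The stretch, from the same RefSeq table on GRCh38.p14, is chr9:35673888-35673927 on the plus strand, with the match 18 to 14 bases before the start.
CA9: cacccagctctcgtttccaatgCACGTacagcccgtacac

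Glycolytic genes moved in both directions. Of 24 tested genes 9 rose and 4 fell, with a median of 0.17. The glucose transporter SLC2A1 had 96.5, 124, 168 and 170.0 FPKM. SLC2A3, a transporter of higher affinity, had 16.1, 25.03, 16.8 and 18.7 FPKM. The regulators PFKFB3 and PFKFB4, which make an activator of phosphofructokinase, rose by 0.93 and 0.76 on the log2 scale, PGK1 by 0.99, LDHA by 0.53 and the pyruvate dehydrogenase kinase PDK1 by 0.42. The 4 enzymes that fell were HK2 at -0.26, PFKM at -0.31, ALDOC at -0.47 and LDHB at -0.39. Both chains of lactate dehydrogenase thus moved oppositely. LDHA had group means of 719, 1038, 1619 and 1427 FPKM. LDHB had 980.2, 749.6, 568 and 507 FPKM. Vessel growth factors rose in 8 of 12 tested members, around a median of 0.73. VEGFA had values of 29.9, 34.4 and 35.3 FPKM and 126, 130.4 and 136 FPKM, and no value of one group reached the other. The shRNA means of VEGFA were 178 and 211 FPKM. Its relative VEGFC had 10.2, 23.8, 49.2 and 37.8 FPKM. PGF, the placental growth factor, had 18.97, 45.3, 68.4 and 71.7 FPKM. ANGPTL4, a secreted inhibitor of lipoprotein lipase that acts on vessels, had 4.2, 22.8, 26.6 and 44.2 FPKM.

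Enzymes of cholesterol synthesis fell along most of the pathway. Of 21 tested enzymes 16 fell and 0 rose, with a median log2 fold change of -0.56. Their summed levels were 1180, 801, 497 and 472 FPKM, so the sum with the ZRANB1 siRNA was above those of both shRNA groups. The scramble siRNA mean was above the scramble shRNA mean in 20 of the 21. In the first steps, from acetoacetyl-CoA to mevalonate, ACAT2 fell by 0.64 on the log2 scale and HMGCS1 fell by 0.77. HMGCS1 had values of 24.2, 24.3 and 28.4 FPKM and 12.1, 15.4 and 16.4 FPKM. The groups were apart (SE 0.135, adjusted p = 0.0024 by limma), and both shRNA groups were lower still, at 5.39 and 4.65 FPKM. From mevalonate to squalene MVK, MVD, IDI1, FDPS and FDFT1 had changes of -0.65, -0.72, -0.70, -0.62 and -0.71, whereas PMVK (-0.06) and GGPS1 (-0.16), the latter on a side branch, were not called. In the sterol steps SQLE, LSS and CYP51A1 changed by -0.63, -0.68 and -0.56 and DHCR7 by -0.76. NSDHL (-0.11), EBP (-0.01) and SC5D (-0.42) were not called.

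Regulators of sterol supply fell more often than they rose, 7 lower and 2 higher of 18. SREBF2, the transcription factor that drives these enzymes, had values of 42.4, 47.3 and 47.4 FPKM and 28.7, 31.4 and 33.1 FPKM, with no overlap, and shRNA means of 21.3 and 18.5 FPKM. SREBF1, its relative for fatty acids, had 47.9, 28.3, 17.7 and 18.6 FPKM. The stretch of the SREBF2 promoter is shown because SREBP factors act on their own gene. Capitals mark a match to the sterol response letters TCACNCCAC on either strand, which 310 of 35116 windows (0.9%) hold. It lies on GRCh38.p14 at chr22:41832950-41833002, plus strand, 133 to 125 bases before the start.
SREBF2: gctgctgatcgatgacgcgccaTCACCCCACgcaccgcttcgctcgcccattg
The apolipoprotein gene APOC1 fell, with 20.04, 8.23, 1.79 and 0.693 FPKM. It was highest with the scramble siRNA and lower in the shRNA groups than in the ZRANB1 siRNA group. INSIG1, which retains SREBP in the endoplasmic reticulum, fell by 0.52 on the log2 scale, and its relative INSIG2 rose by 0.68. ABCA1, which exports cholesterol, rose, with 1.07, 1.84, 0.916 and 1.93 FPKM.

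Of 23 tested fatty acid genes 10 fell and 1 rose. SCD, the desaturase that makes oleic acid, had values of 212, 225 and 238 FPKM and 104, 113 and 113 FPKM. The siRNA groups lay apart (log2 fold change -1.03, SE 0.0692, adjusted p = 1.53e-06 by limma), but both stood far above the shRNA groups, at 10.6, 10.8 and 11.9 FPKM and 17.4, 17.7 and 17.9 FPKM. ACLY, ACACA and FASN, which build palmitate from citrate, fell, with log2 fold changes of -0.42, -0.43 and -0.73, and the desaturases FADS1 and FADS2 had -0.43 and -0.73. ACSL5, which activates fatty acids, was the member that rose, with 14.4, 28.3, 62.3 and 50.2 FPKM. FABP6, a bile acid binding protein, had values of 5.91, 6.43 and 8.54 FPKM and 1.41, 2.46 and 3.32 FPKM, one of the largest falls, and shRNA means of 0.549 and 1.31 FPKM.

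**Figure D4:**
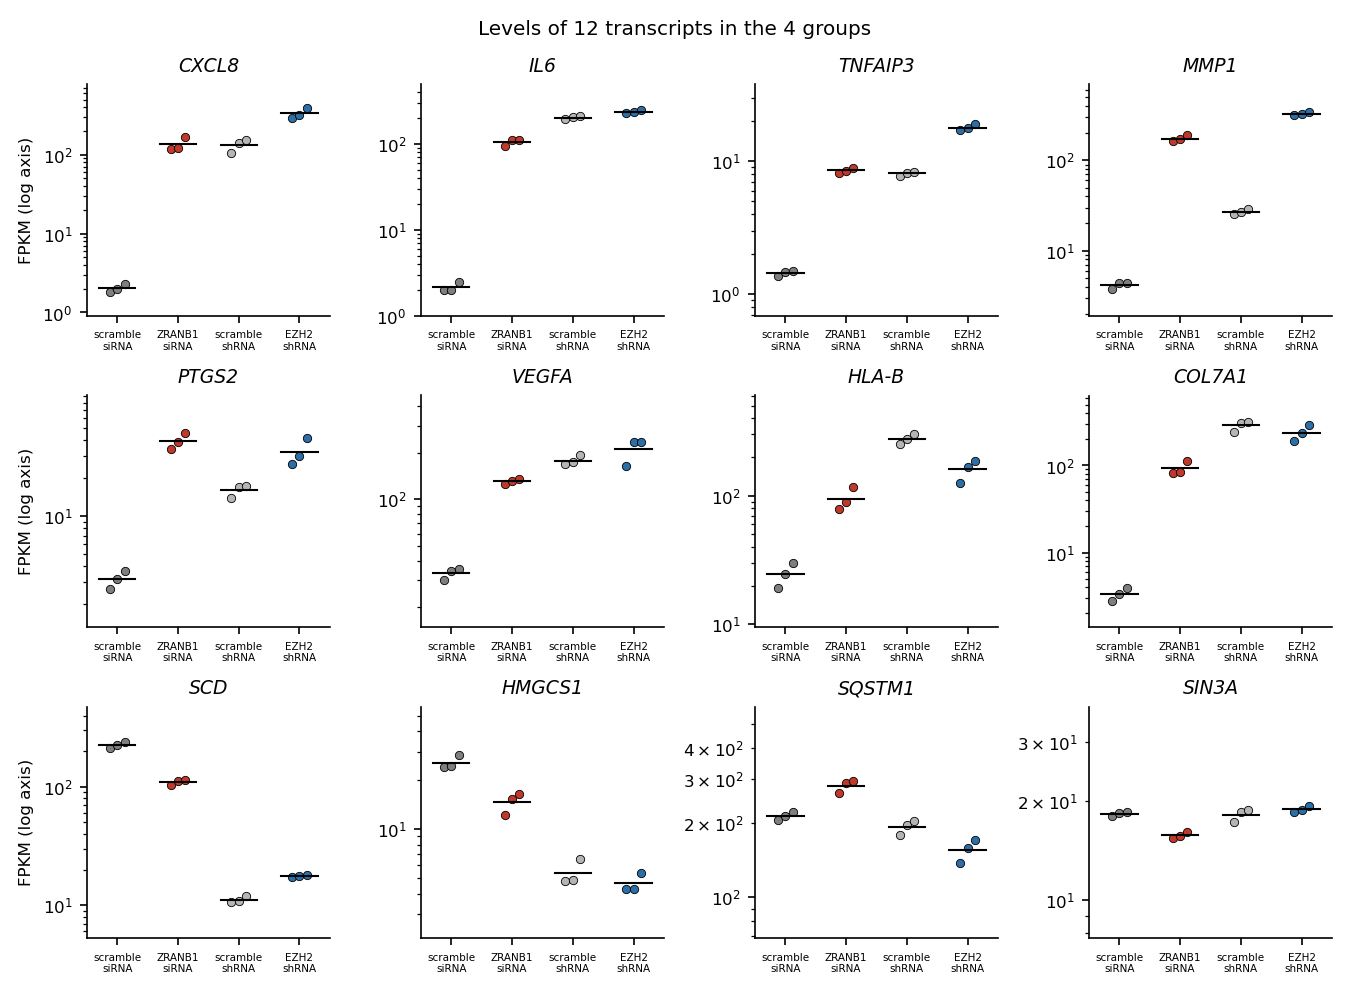
FPKM (vertical axes, log scale) of 12 transcripts in the 4 groups (horizontal axes); points are the 3 values of a group and bars are group means. CXCL8, IL6, TNFAIP3, MMP1, PTGS2, VEGFA, HLA-B and COL7A1 are lowest with the scramble siRNA, SCD and HMGCS1 are highest there, and SQSTM1 and SIN3A are respectively highest and lowest with the ZRANB1 siRNA.

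Stress genes are given beside the 10.1% of all tested genes called higher and the 6.50% called lower. Of 13 listed metallothionein genes and regulators, 7 were tested, of which 4 rose and 1 fell. MT1X, a metal-binding protein with close paralogs, had 262, 508, 417 and 389 FPKM. MT2A, of the same family, had 4162, 7273, 7815 and 6741 FPKM. The zinc exporter SLC30A1 fell, with 19.3, 15.2, 7.9 and 11.8 FPKM. Among NRF2 targets and iron genes 8 rose and 1 fell of 25. The mitochondrial superoxide dismutase SOD2, which NF-kB raises too, had 35.2, 71.5, 90.2 and 88.2 FPKM. The heavy ferritin chain FTH1 had 919, 1588, 2014 and 1548 FPKM. The light chain FTL had 1512, 2354, 2319 and 1708 FPKM, and both iron storage genes were thus lowest with the scramble siRNA. The quinone reductase NQO1 had 66.4, 104, 133 and 69.5 FPKM. Chaperones and sensors of the unfolded protein response had 5 higher and 0 lower of 21. Genes of the integrated stress response had 3 higher and 2 lower of 26, near the shares over all genes tested. CEBPB, a transcription factor of both stress and inflammation, rose from 95.9 ± 12.1 to 180.1 ± 27.5 FPKM (SD, n = 3), beside shRNA means of 179 and 193 FPKM. The serine synthesis enzyme PHGDH fell, with 43.7, 27.02, 20.4 and 18.9 FPKM. Lysosome and autophagy genes had 9 higher and 0 lower of 31. The protease CTSS had 0.954, 8.89, 16.6 and 18.7 FPKM. Its relative CTSB had 52.7, 83.99, 122 and 93.9 FPKM.

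The calls among genes of DNA replication and mitosis were all lower, where 6.50% of all genes tested were called lower. Of 46 tested DNA replication genes 8 fell and 0 rose, around a median of -0.15, and of 42 mitotic genes 5 fell and 0 rose, around -0.11. The replicative helicase subunit MCM4 had 69.2, 58.04, 73.98 and 55.1 FPKM. The polymerase subunit POLE had 40.4, 29.3, 29 and 25.9 FPKM. The phosphatase CDC25C, which promotes entry into mitosis, fell from 16.4 ± 0.728 to 11.7 ± 0.269 FPKM (SD, n = 3), beside shRNA means of 10.6 and 9.78 FPKM. CDKN1A, the p21 inhibitor of cyclin-dependent kinases, rose from values of 15.2, 17.4 and 18.6 FPKM to 45.7, 46.1 and 55.7 FPKM, without overlap, and had shRNA means of 52.4 and 84.9 FPKM. Its relatives fell. CDKN1B (p27) had 40.2, 32.5, 26.2 and 24.2 FPKM. CDKN1C (p57) had 12.1, 7.12, 2.48 and 1.5 FPKM. Cyclin D2 (CCND2) rose, with 1.07, 2.06, 1.03 and 3.65 FPKM. Of 21 p53 target genes 5 rose and 1 fell, and MDM2, the ubiquitin ligase of p53, was the one that fell, with 33.4, 22.8, 17.9 and 20.02 FPKM. Among regulators of apoptosis 6 rose and 2 fell of 19, and the rises included genes of survival and of death. The survival gene BCL2A1 had 0.544, 4.89, 3.79 and 6.91 FPKM. The death activator PMAIP1 had 15.5, 37.4, 56.5 and 62.2 FPKM.

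Genes of the large housekeeping complexes are given beside the 10.1% of all tested genes called higher and the 6.50% called lower. Of 73 ribosomal protein genes 4 rose and 7 fell, around a median of -0.061. Many of these genes have processed pseudogenes that can share their reads. Of 57 nuclear-encoded respiratory chain subunits 1 rose and 9 fell, around -0.12. The ATP synthase subunit ATP5B, which fell, had 678, 533, 426 and 349.9 FPKM. Ribosome biogenesis factors had 1 higher and 5 lower of 25, among them nucleophosmin (NPM1), which fell, with 2141, 1538, 845 and 689 FPKM. Nucleoporins had 2 lower of 27. NUP210, a pore membrane protein, was one of the largest falls, from 12.4, 13.3 and 13.4 FPKM to 4.98, 5.57 and 6.1 FPKM, with means of 0.491 and 0.0872 FPKM in the shRNA groups. Cytosolic tRNA synthetases had 1 higher and 3 lower of 20.

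Developmental signalling genes moved in both directions. In the list of ID factors and the TGF-beta superfamily 10 rose and 4 fell of 26. The activin chains parted: INHBA had 0.552, 7.21, 7.25 and 13.3 FPKM and rose, and INHBB fell from 6.15, 6.48 and 6.65 FPKM to 2.08, 2.6 and 2.64 FPKM, without overlap, beside shRNA means of 0.271 and 0.224 FPKM. The receptor TGFBR1 had 15.6, 40.1, 42.02 and 78.4 FPKM. Its partner TGFBR2 had 35.3, 69.9, 83.7 and 95.9 FPKM, and both rose. The antagonist NOG rose, with 14.8, 31.8, 19.5 and 37.01 FPKM. Follistatin (FST), which binds activin, fell, with 56.1, 35.1, 15.3 and 23.8 FPKM. Of 31 semaphorins, ephrins and other guidance genes 10 rose and 4 fell. SEMA3B had values of 15.8, 18.2 and 20.9 FPKM and 6.14, 7.74 and 9.18 FPKM, without overlap, and shRNA means of 9.1 and 6.68 FPKM. SEMA7A rose, with 18.7, 52.7, 66.8 and 62.2 FPKM. SLIT2, a repulsive guidance ligand, rose, with 1.08, 7.54, 12.5 and 15.04 FPKM. Retinoid genes had 4 higher and 1 lower of 12, with the receptor RARA at 7.92, 14.8, 20.5 and 20.2 FPKM. Of 39 listed HOX genes only 7 passed the filter, and 2 of them fell, HOXB3 and HOXB9, the latter with 11.2, 8.78, 2.98 and 4.15 FPKM.

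Among the falls outside these lists, LLGL2, a cell polarity gene, had 5.22, 1.98, 1.39 and 0.798 FPKM. NUDT8 had 9.9, 3.75, 1.86 and 2.19 FPKM. EEF1A2, a translation elongation factor of muscle and nerve that some tumours express, had 47.4, 23.2, 1.99 and 1.33 FPKM. VSTM1 had 3.24, 1.1, 0.0788 and 0.334 FPKM. All 4 were highest with the scramble siRNA. SOCS2-AS1 cannot be told apart from SOCS2, since no source used here gives the strand setting of the counting.

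The ZRANB1 siRNA group also differed from the shRNA groups, in 3502 genes (29.4%) from the scramble shRNA and in 3380 (28.3%) from the EZH2 shRNA. For 1855 of the 1985 called genes (93.5%) its mean lay between those of the scramble siRNA and EZH2 shRNA groups, and for 1724 (86.9%) between those of both scramble groups. Over all genes tested these shares were 72.3% and 68.1%. The calls used the same scramble siRNA values that these positions use, so the shares describe the genes and were not tested. Genes that differed from both scramble groups in the same direction numbered 60 (0.503%): 45 were higher (0.377%) and 15 lower (0.126%), a set defined, and its named genes chosen, after the values had been seen. The higher ones included MMP1 and PTGS2. The Wnt receptor FZD8 had 10.2, 19.5, 10.5 and 17.7 FPKM. The glutamine synthetase GLUL had 2.24, 4.52, 2.26 and 7.72 FPKM. In both genes the scramble means were close to each other. The citrullinating enzyme PADI4 had 0.387, 4.05, 2.16 and 8.57 FPKM. The serine protease HTRA1 had 29.4, 47.3, 23.96 and 61.6 FPKM. The adhesion gene L1CAM had 7.7, 19.1, 15.2 and 30.7 FPKM. The lower ones included EZH2, MCM4 and EGR1. The membrane protein gene EMP1 had 124, 95.8, 149 and 91 FPKM. The chromatin protein gene HMGB2 had 181, 146, 186 and 142 FPKM. Leaving out any 1 value of either siRNA group gave 28 to 35 higher and 7 to 12 lower genes.

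Only 14 genes differed from each of the other 3 groups in the same direction, 11 higher (0.0922%) and 3 lower (0.0251%). SQSTM1, the autophagy receptor p62, had values of 204, 214 and 222 FPKM with the scramble siRNA, 263, 290.1 and 295 FPKM with the ZRANB1 siRNA, 179, 196 and 204 FPKM with the scramble shRNA and 137, 158 and 170.1 FPKM with the EZH2 shRNA. Its ZRANB1 siRNA values lay above all 9 others, with a log2 fold change of 0.40 (SE 0.087, adjusted p = 0.0084 by limma). The glucose transporter SLC2A3 did so too, at 24.1, 24.4 and 26.5 FPKM against a highest other mean of 18.7 FPKM. The transcription factor SOX4 had 11.6, 14.6, 9.28 and 9.86 FPKM. The inositol phosphatase INPP5A had 17.03, 21.2, 14.2 and 16.3 FPKM. The small nucleolar RNA host gene ZFAS1 had 123, 152, 119.9 and 111 FPKM. In these the next highest mean was that of the scramble siRNA. The organic cation transporter SLC22A3 had 3.66, 4.88, 2.91 and 3.05 FPKM. The TFIID subunit TAF13 had 47.5, 58.3, 46.5 and 49.4 FPKM. TMEM150A had 2.13, 3.4, 2.01 and 2.35 FPKM. The glutathione transferase GSTO1 had 179, 213, 187 and 171 FPKM. All the higher genes named here were above each other group by less than 2-fold. The other 2 of the 11 higher genes were a small nucleolar RNA and an uncharacterised locus. The 3 lower genes were SIN3A, the scaffold of a histone deacetylase complex, with 17.98, 18.3 and 18.4 FPKM falling to 15.4, 15.7 and 16.04 FPKM, and 2 others. The chromatin reader ZMYND8 had 22.2, 17.6, 24.6 and 22.9 FPKM. The membrane-bound transcription factor CREB3L4 had 3.03, 1.95, 2.92 and 3.42 FPKM. All 3 changes were smaller than 2-fold. Leaving out any 1 value of either siRNA group left 6 to 9 genes higher than all other groups and 1 to 3 lower.

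The change with the ZRANB1 siRNA was last set against the change with the EZH2 shRNA, each against its own scramble group, so that no library was shared. The EZH2 shRNA comparison called 765 genes (6.41%). Across the 11929 genes Pearson's r between both changes was 0.02 and Spearman's rho 0.09, given as a description across genes, which are not independent replicates. Over all genes tested, 3.39% were called higher and 3.03% lower with the EZH2 shRNA, and 10.1% higher and 6.50% lower with the ZRANB1 siRNA. Of the 1210 genes higher with the ZRANB1 siRNA, 127 were also higher with the EZH2 shRNA, which is 10.5% of the former and 31.4% of the 404 latter, and 111 were lower with it, 9.2% of the former and 30.7% of the 361 latter. Of the 775 lower genes, 50 were lower with both (6.5% and 13.9%) and 47 were higher with the EZH2 shRNA (6.1% and 11.6%).

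The difference between both changes was itself tested and was called for 1251 genes (10.5%), 824 (6.91%) with a higher and 427 (3.58%) with a lower change in the ZRANB1 siRNA comparison. It was called for 955 of the 1985 genes of that comparison (48.1%). The genes named next were called in the ZRANB1 siRNA comparison, with small RNA genes and uncharacterised loci left aside. Among their largest positive differences were C15orf48 at 6.36 on the log2 scale, C3 at 5.87, SAA1 at 5.40, CXCL1 at 4.98 and IL6 at 4.86. SAA1 had changes of opposite sign, 3.71 with the ZRANB1 siRNA and -1.70 with the EZH2 shRNA. Among the largest negative ones were SOCS2 at -1.89, FABP6 at -1.84, SCD at -1.66 and the actin-binding membrane skeleton gene DMTN at -1.64. SCD changed by -1.03 in one comparison and by 0.63 in the other (adjusted p of the difference = 9.14e-07 by limma). EZH2 fell less with the ZRANB1 siRNA than with its own hairpin, a difference of 0.39 (adjusted p = 0.0242 by limma). For ZRANB1 the difference of -0.29 (95% interval -0.63 to 0.06) was not called.

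**Figure D5:**
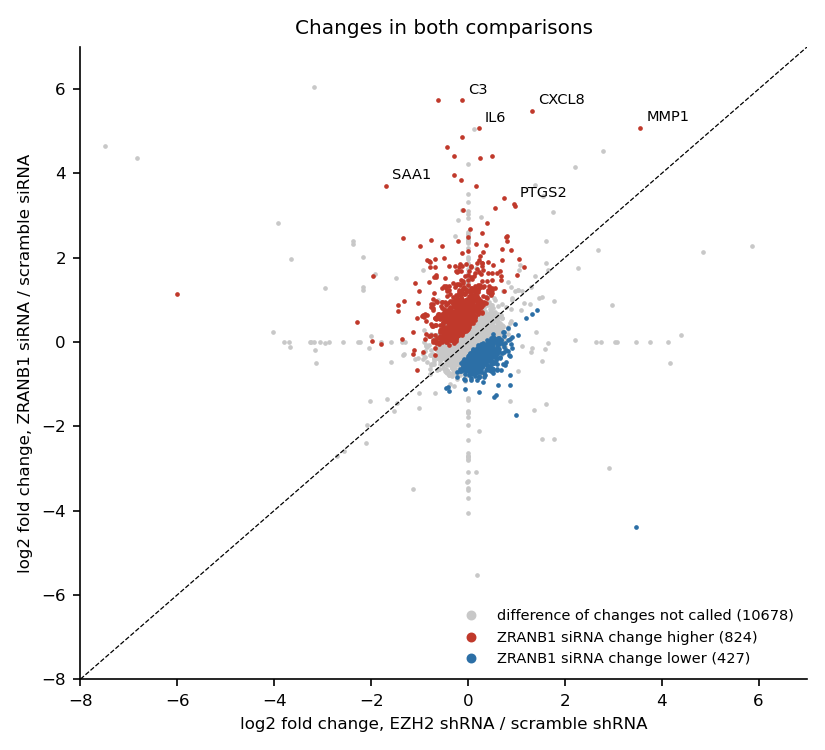
Log2 fold change with the ZRANB1 siRNA against the scramble siRNA (vertical axis) and with the EZH2 shRNA against the scramble shRNA (horizontal axis) for 11929 genes; red and blue points are genes whose 2 changes differed at an adjusted p of 0.05, grey points the others, and the dashed line marks equal changes. C3 and IL6 lie near 0 on the horizontal axis, CXCL8 and MMP1 to the right of 0 at 1.32 and 3.56, and SAA1 to the left of 0 at -1.70.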

How the data were processed

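RNA was measured by sequencing in 12 libraries of LM2 cells, 3 in each of 4 groups. The authors deposited FPKM per gene, and the submitters' processing notes name hg19, Cuffdiff 2.2.1, Cufflinks 2.2.1, TopHat2 2.1.1 and SAMtools, with no role or setting. Counts were not used here and the depth is unknown. From these values 26006 rows were joined by symbol to 24556 genes. Groups came from the labels, and columns were assigned to a group only, since the values of a group stood in text order in each row. The 11929 genes averaging 1 FPKM or more across all 12 values were tested on log2(FPKM + 1) with limma 3.58.1 in R 4.3.3, all 4 groups in 1 fit with 8 residual degrees of freedom, a variance trend, and Benjamini-Hochberg adjustment over all genes tested. Calls were made at an adjusted p below 0.05. In simulated data with 11929 genes the fit recovered 67.2% of 1.5-fold, 91% of 2-fold and 98.5% of 4-fold changes, and 6.56% of 183 calls were unchanged genes. The simulation held far fewer changed genes than the 1985 called here, and its noise was independent between genes. These shares therefore need not hold for the real comparison. The members and the 60 gene lists were chosen with earlier results of these data known. Genes are named by rule: ZRANB1 and EZH2, and the 12 largest called rises and falls without overlap. From each list up to 6 were named by adjusted p, or any member where a list is described by pathway order or subunit. The rule also gave 8 per direction against all 3 other groups, and 6 per direction by the difference of both changes. Genes called against both scramble groups were added after the values had been seen. Some list members, such as ISG15, IFITM1 and MX1, were named outside this rule. Not every gene that the rule allows is described, and a few are not reported here. Alternatives were the filter, the pseudocount, scaling per group, the 6 libraries alone, no variance trend, symbols joined by sum, small RNAs left out, a fold threshold, and leaving out 1 value.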

Additional observations from a re-analysis of the deposited data

How the results depend on the processing

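No paired analysis was possible because the values of a group cannot be traced to their libraries, so that no replicate number belongs to a value. Asking for at least a 2-fold change in addition left 211 genes higher and 12 lower against the scramble siRNA, and 309 with a difference between both changes. For genes called against several groups, the 2-fold rule was applied to the change from the scramble siRNA only. It left 1 higher and 0 lower than each of the other 3 groups, and 8 higher and 0 lower than both scramble groups. Not all of these 8 were 2-fold above the scramble shRNA, and L1CAM differed from it by 0.31 on the log2 scale. Leaving out 1 value in a random order gave 927 to 957 genes higher and 453 to 490 lower against the scramble siRNA, 6 to 9 higher and 1 to 3 lower than each of the other 3 groups, and 28 to 35 higher and 7 to 12 lower than both scramble groups, with fewer values tested. Without a filter 5 genes were lower than each of the other 3 groups and 24 lower than both scramble groups, and a filter at 5 FPKM left 24 higher than both. The cause was not tested. The share of higher calls lay between 60.2% and 67.2%, against 61.0% as reported. Of 351 named or listed genes that were called, 82 lost the call in at least 1 setting, 23 of them with the 6 libraries alone, and 0 changed sign. Among genes that were not called, the sign changed with 1 value left out for CHUK (-0.133 to 0.0197), EBP (-0.0795 to 0.0506), EED (-0.0976 to 0.05), LIFR (-0.0739 to 0.0764), OTUB1 (-0.0727 to 0.0821) and PMVK (-0.134 to 0.024), and scaling per group gave 0.0093 for EBP and 0.0137 for OTUB1. The log2 fold change of ZRANB1 ran from -0.27 to -0.11 and that of EZH2 from -0.71 to -0.61 over all settings. With no counts, the depth behind low values is unknown.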
